A study of Mus musculus with 28 samples.

Results

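The miR-10, miR-99/100 and miR-125 families were followed in mouse blood through 7 mature miRNAs, mmu-miR-10a-5p, mmu-miR-10b-5p, mmu-miR-99a-5p, mmu-miR-99b-5p, mmu-miR-100-5p, mmu-miR-125a-5p and mmu-miR-125b-5p. These members were taken by name from 1966 miRNAs among 80668 RNAs listed, and all 7 were measured. All 14 animals were female, wildtype and of the inbred strain C57BL/6N. The ages of 2 and 8 months had 3 mice each, that of 6 months had 4, and those of 12 and 18 months had 2 each. Every mouse was bled from the vena cava under ketamine and xylazine, and a first spin cleared platelets, large vesicles and debris from the plasma. Ultracentrifugation then gave a pellet enriched in extracellular vesicles (EVs, membrane particles that cells release) and the EV-depleted fluid left above it, called plasma here. Both fractions of every mouse were sequenced for small RNA, which makes 28 libraries, and blood was not pooled between animals. The plasma labels of replicates 2 and 3 at 2 months carry 1 shared code that joins the codes of both mice. Taken alone, these labels do not show which mouse gave which plasma library, or that each came from 1 mouse. Only the replicate number ties each to an EV library, and counts of mice below use that tie. Small RNA counts hold no protein marker of vesicles, so how well the spin separated the fractions was not checked here.

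A miRNA guides the Argonaute protein to messenger RNAs, mainly by pairing of its seed, the bases near its 5′ end. The miR-10 genes lie inside Hox gene clusters and are known for expression in vessel endothelium and other trunk tissues. miR-99a, miR-99b and miR-100 form a related family that lacks a base of the miR-10 seed region and is known to repress members of the insulin and mTOR pathway. The miR-125 family descends from lin-4, the first miRNA described in worms, and is known for its role in blood stem cells and in differentiation. In vertebrates most genes of the latter families sit beside let-7 genes and are transcribed with them as 1 long precursor.

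The mature sequences are shown because they define the families and because some members are nearly identical. They are given 5′ to 3′ from RefSeq on GRCm38.p6, and capitals mark the seed, bases 2 to 8.
mmu-miR-10a-5p: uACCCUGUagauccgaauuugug
mmu-miR-10b-5p: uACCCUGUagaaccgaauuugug
mmu-miR-99a-5p: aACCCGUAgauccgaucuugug
mmu-miR-99b-5p: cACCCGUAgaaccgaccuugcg
mmu-miR-100-5p: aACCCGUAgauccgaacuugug
mmu-miR-125a-5p: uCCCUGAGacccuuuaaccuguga
mmu-miR-125b-5p: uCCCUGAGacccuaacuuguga

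Members of a family shared 1 seed, and the 3 families had 3 different seeds. Counted from the 5′ end, miR-10a-5p and miR-10b-5p differed by the single substitution U12A (miR-10a-5p first), outside the seed. miR-99a-5p and miR-100-5p differed by U16A alone (miR-99a-5p first), and miR-99b-5p differed from miR-99a-5p by A1C, U11A, U16C and U21C (miR-99a-5p first). Whether the counting of these libraries allowed mismatches is not stated in the study's methods, which describe 1 mismatch for organ libraries, so the split of reads within the pairs miR-10a-5p and miR-10b-5p, and miR-99a-5p and miR-100-5p, is uncertain to that extent. miR-125b-5p is made from 2 hairpins with the same mature sequence, and its estimated count was not a whole number in 5 of the 28 libraries. The other 6 members had whole counts throughout.

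All genes of the members lay on the plus strand. Mir10b (chr2:74726070-74726137) lay in an intron shared by Hoxd3 and Hoxd4, and Mir10a (chr11:96317165-96317274) lay outside any other annotated gene, 992 bases from Hoxb4. Mir99b (chr17:17830188-17830257) lay in an intron of Spaca6 and Mir125a (chr17:17830812-17830879) overlapped an exon of it, 554 bases away, with Mirlet7e between them. Mir99a (chr16:77598936-77599000) and Mirlet7c-1 stood 656 bases apart within intronic sequence of Mir99ahg, a noncoding gene, and Mir125b-2 (chr16:77646273-77646343) followed 47272 bases after Mir99a, also within an intron of it. Mir100 (chr9:41531425-41531504) and Mir125b-1 (chr9:41581926-41582002) lay 50421 bases apart, with Mirlet7a-2 between them, in introns of the noncoding gene 3110039I08Rik. These positions are on mm10, from GENCODE M21. miR-125b-5p was therefore the only member with genes in 2 of the clusters, and its count does not tell them apart.

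The short motifs GGAG and CCCU have been described in exported miRNAs, GGAG as bound by hnRNPA2B1, and GGCU as bound by SYNCRIP, proteins linked to loading of miRNAs into vesicles. Searched on the mature strand alone, GGAG and GGCU were in none of the 7 members, against 14.2% and 13.3% of 1675 mature mouse miRNAs with a sequence. CCCU was in both miR-10 members and in both miR-125 members, and 11.4% of the 1675 hold it. In these 4 members CCCU lies within the seed, and both miR-125 members hold it again after the seed. It was not in miR-99a-5p, miR-99b-5p or miR-100-5p. These matches describe letters only.

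Libraries held between 928651 and 52753818 counts, of which 0.222% to 0.652% were miRNA counts. The shallowest, plasma of replicate 1 at 6 months, held 4977 miRNA counts. Red-cell miRNAs were the highest of the marker lists, with a median summed level of 186516 TMM CPM in EVs and 209084 in plasma, and miR-9-5p, a brain marker, was at 0 in every plasma library. The 7 members together made up 0.847% ± 0.394 (SD, n = 14) of miRNA counts in EVs and 0.923% ± 0.413 (SD, n = 14) in plasma. Levels below are CPM, each library's counts scaled to a common miRNA total, after TMM, a factor that sets libraries to a common centre (TMM CPM). Age correlations and most levels by age use the authors' RPM values, and fitted slopes with age use TMM. Fewer releasing cells or particles, and less of a miRNA in each, cannot be told apart in such levels.

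The members fell into a high and a low set. miR-125b-5p led in EVs at 2675 ± 1237 TMM CPM (SD, n = 14), with libraries from 1261 to 6101 around a median of 2476. miR-125a-5p led in plasma at 2594 ± 1155 TMM CPM, from 1357 to 5923 around a median of 2400.4. The miR-10 members followed, with miR-10a-5p at 1534 ± 588 in EVs and 1862 ± 763 in plasma and miR-10b-5p at 1495 ± 664 in EVs and 1659 ± 649 in plasma. miR-99a-5p was lower, at 459 ± 248 in EVs and 429 ± 228 in plasma, and miR-99b-5p stood at 305 ± 127 and 239.9 ± 144. miR-100-5p was the lowest member in both fractions, at 281 ± 137 in EVs and 118 ± 77.8 in plasma.

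The order of the sets held in every mouse, with gaps of varying size. miR-10b-5p, the lowest of the high set, exceeded miR-99a-5p, the top of the low set, in 14 of 14 mice in EVs and in 14 of 14 in plasma, by a log2 ratio of counts of 1.79 ± 0.59 and 2.03 ± 0.82 (SD). Neighbours inside the sets were often not separable. miR-10a-5p exceeded miR-10b-5p in 7 mice and was below it in 7 mice in EVs (log2 ratio 0.03 ± 0.36). miR-125b-5p and miR-10a-5p likewise split 7 to 7 in plasma (0.28 ± 0.53), and miR-99b-5p and miR-100-5p split 5 to 7 with 2 ties in EVs (0.15 ± 0.69). miR-125b-5p was above miR-125a-5p in EVs in 13 mice and below it in none (0.56 ± 0.30), whereas in plasma it was below miR-125a-5p in 10 mice and above it in 4.

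As shares of the members' own counts, the miR-125 family held 51.9% ± 4.09 in EVs and 52.5% ± 4.86 in plasma. The miR-10 family held 35.7% ± 2.69 and 38.8% ± 4.16. The miR-99/100 family held 12.4% ± 2.86 in EVs and 8.71% ± 3.04 in plasma (SD, n = 14 each). By mean RPM, miR-125b-5p ranked 56 of 307 expressed miRNAs in EVs and miR-125a-5p ranked 58 of 304 in plasma, while miR-100-5p ranked 168 and 245. All 7 members passed the filter for expression, a level of 1 RPM reached in over 10% of a fraction's libraries. The 4 members of the high set reached 1 RPM in all 28 libraries, and miR-100-5p reached it in 10 of 14 EV and 4 of 14 plasma libraries.

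The first comparison asks which members differ between vesicles and the fluid around them. miR-100-5p was higher in EVs and miR-125a-5p was lower. Their log2 differences, EVs minus plasma, were 1.29 (SE 0.32) and -0.56 (SE 0.20), which is 2.44-fold higher and 1.48-fold lower. The other 5 members did not pass the test. Each was tested with edgeR's quasi-likelihood test on the 28 libraries together, age being a covariate, with Benjamini-Hochberg adjustment over 333 miRNAs and a threshold of 0.05. Of these 333 miRNAs 61 were called (18.3%), 27 higher in EVs (8.11%) and 34 lower (10.2%), so 2 of 7 members called stands beside that background. The median difference of the members was 0.05, against 0.02 over all miRNAs tested. Called miRNAs split 28 higher and 15 lower when RPM scaling replaced TMM, and 40 higher and 30 lower in DESeq2.

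miR-100-5p rested on few reads. Its counts summed to 260 over the EV libraries, 5 to 54 each, and to 56 over the plasma libraries, 0 to 11 each. At 2 months its level was 178, 304 and 568 TMM CPM in EVs and 57.7, 36.8 and 124 in the plasma of the same replicates. At 6 months it was 309.8, 236, 447 and 439.9 in EVs and 182, 35.5, 100.2 and 291 in plasma. All 7 of these mice had the higher level in EVs. At 8 months the levels were 159.8, 126 and 171 in EVs and 0, 173 and 76.99 in plasma. At 12 months they were 392 and 281 in EVs and 128 and 87.75 in plasma, and at 18 months 144 and 174 in EVs and 188 and 170.5 in plasma. The level in EVs was higher in 12 of 14 mice, the exceptions being replicate 2 at 8 months and replicate 1 at 18 months, and the ranges of the fractions overlapped. The plasma library with 0 counts, replicate 1 at 8 months, allows up to 75.1 CPM of its miRNA counts, before TMM (3 counts, counting error only). The adjusted p was 0.0051 with edgeR. It lay between 0.00019 and 0.0353 over 28 alternatives, with log2 differences of 1.10 to 1.62.

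miR-125a-5p was lower in EVs in 14 of 14 mice on the TMM scale. Its levels ran from 898 to 3415 TMM CPM in EVs around a median of 1665, and from 1357 to 5923 in plasma around 2400.4. The fractions overlapped between mice, and the difference lay within each mouse as paired here. At 2 months EVs of replicate 3 (2046 TMM CPM) lay above plasma of replicate 2 (1471). The count of 14 thus rests on the uncertain pairs being as numbered. Its adjusted p was 0.0454 in edgeR without mouse in the model, just inside the threshold, and 0.0003 in the paired fit with mouse as a replicate block (log2 difference -0.52, SE 0.10). Without the block the call was lost when any 1 mouse but replicate 4 at 6 months was left out, with adjusted p of 0.0618 to 0.166. With the block it held in all 14 such fits. Leaving out both uncertain pairs was tried only without the block, where the call was lost (adjusted p = 0.104 in edgeR). In RPM units miR-125a-5p was lower in EVs in 11 of 14 mice, and with RPM scaling neither fit called it (adjusted p = 0.634, and 0.217 with the block).

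RPM scaling also moved the centre of all miRNAs. It shifted the median log2 difference of the 333 miRNAs from 0.02 to 0.28. Relative to that median, miR-125a-5p stood at -0.58 with TMM and at -0.53 with RPM scaling, and miR-100-5p stood at 1.26 and 1.34. Relative to the median of all miRNAs, miR-10a-5p stood at -0.30 and -0.22.

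miR-10a-5p was called only in paired fits with TMM scaling in edgeR. Its level was lower in EVs in 12 of 14 mice, from 669 to 2917 TMM CPM in EVs and from 729.95 to 3385 in plasma. That count rests on pairs as numbered, since EVs of replicate 3 at 2 months (1730.5) exceeded plasma of replicate 2 (772). The log2 difference was -0.28 (SE 0.20, adjusted p = 0.362 in edgeR). With the replicate block the difference was -0.27 (SE 0.10, adjusted p = 0.0355), but this call was kept only when the mouse left out was replicate 1 at 2, 6 or 18 months, and was lost in the other 11 of 14 such fits (adjusted p up to 0.191). It was also lost when the block was combined with DESeq2 size factors (adjusted p = 0.0834 in edgeR), DESeq2 (0.0913) or RPM scaling (0.881). With the block 88 of 333 miRNAs were called (26.4%), 3 of the members among them. miR-10b-5p was lower in EVs in 10 of 14 mice, with a log2 difference of -0.14 (SE 0.20, adjusted p = 0.675 in edgeR).

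miR-125b-5p differed in the other direction from miR-125a-5p, and its call depended on the fit. EVs held the higher level in 12 of 14 mice, and the log2 difference was 0.21 (SE 0.23, adjusted p = 0.560 in edgeR) and 0.24 (SE 0.10, adjusted p = 0.0890) with the block, neither past the threshold. With the block it was called under DESeq2 size factors (0.29, adjusted p = 0.0434 in edgeR) and in DESeq2 (0.29, adjusted p = 0.0458), and without replicate 3 at 2 months (adjusted p = 0.0160) or replicate 3 at 6 months (adjusted p = 0.00787). miR-99b-5p had a log2 difference of 0.24 (SE 0.27, adjusted p = 0.593 in edgeR), and miR-99a-5p had 0.05 (SE 0.28, adjusted p = 0.948 in edgeR). Both were higher in EVs in 9 of 14 mice. Each had 1 plasma library at 0, replicate 1 at 6 months for miR-99a-5p and replicate 1 at 12 months for miR-99b-5p. These are the libraries with the fewest miRNA counts, and 3 counts there allow up to 603 and 406 CPM before TMM.

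**Figure D1:**
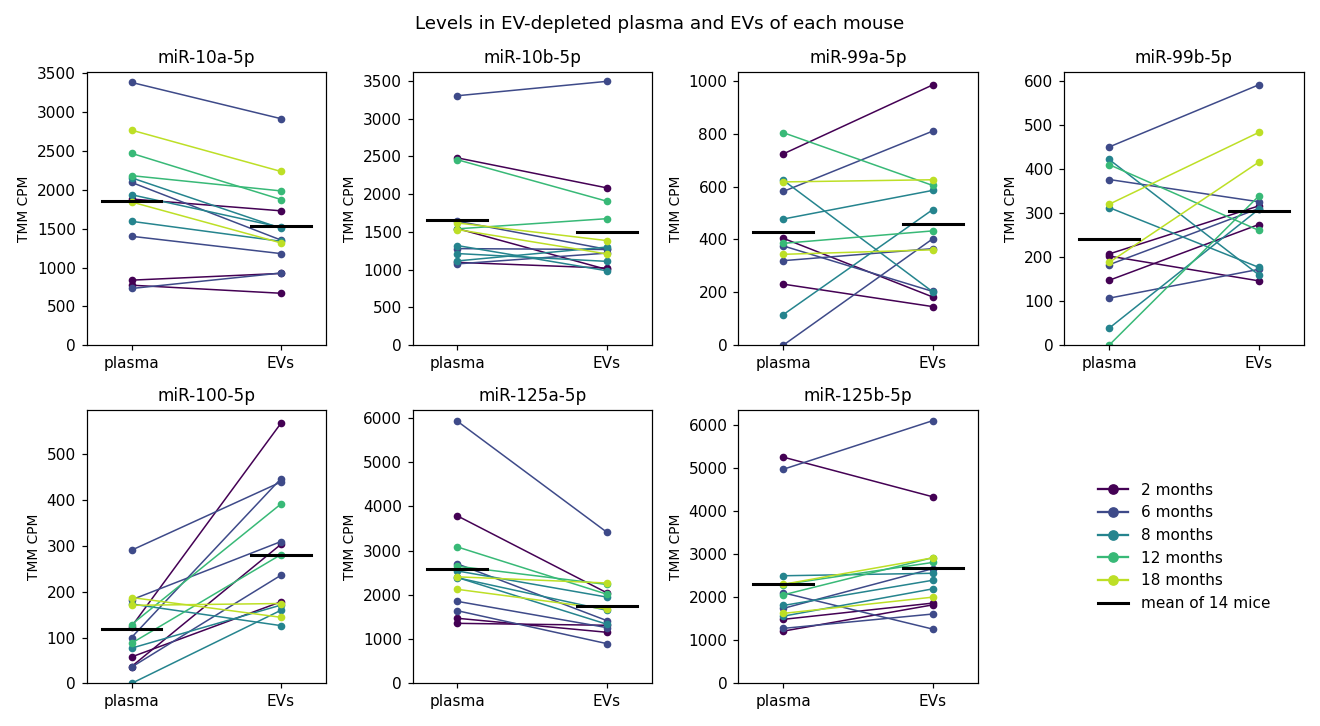
Level of each member in TMM CPM (y axis, from 0) in the EV-depleted plasma and the EVs of 14 mice, with lines joining the fractions of a mouse, colours for age and black bars for means. miR-100-5p rises from plasma to EVs in 12 of 14 mice and miR-125a-5p falls in 14 of 14, while lines of miR-99a-5p and miR-99b-5p cross.

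**Figure D2:**
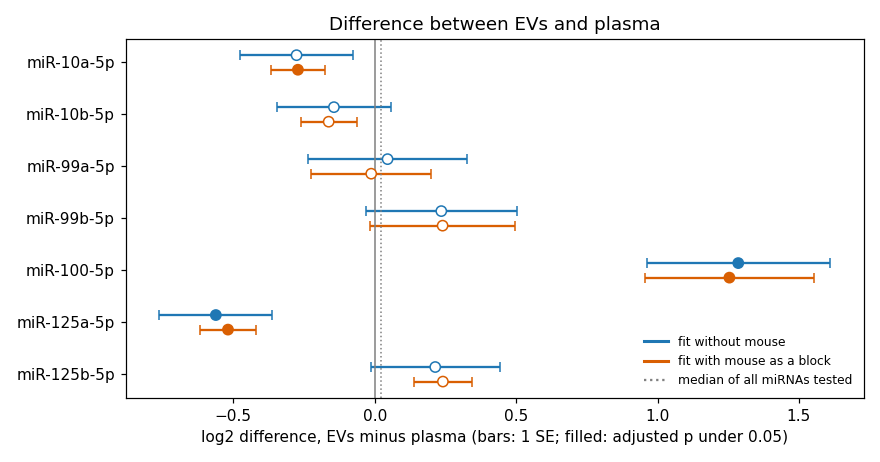
Log2 difference between EVs and plasma for each member (x axis, bars 1 SE) from the fit without mouse and the fit with mouse as a block, with filled points for an adjusted p under 0.05. miR-100-5p at 1.29 and miR-125a-5p at -0.56 are filled in both fits and miR-10a-5p only with the block.

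Ratios of 2 members within a library do not depend on scaling between libraries, and they compare miRNAs of 1 gene cluster or 1 family. miR-125b-5p has genes in 2 clusters whose reads are not told apart, so ratios over it are not of 1 transcript alone. Of these ratios, 4 were tested, each as the log2 ratio of counts with 0.5 added, EVs minus plasma. The test was an exact two-sided sign-flip test over all sign changes, with adjustment over these 4. The ratio of miR-99b-5p to miR-125a-5p, neighbours on chromosome 17, was higher in EVs by 0.94 ± 1.15 (SD, n = 14 mice, exact p = 0.00891, adjusted p = 0.0293). That ratio was higher in EVs in 11 of 14 mice, and its geometric mean was 0.175 in EVs and 0.0910 in plasma. Its largest differences, 3.06 in replicate 1 at 12 months and 2.87 in replicate 3 at 8 months, rest on 0 and 1 plasma counts of miR-99b-5p. The size of the difference thus depends in part on the 0.5 added. The ratio of miR-100-5p to miR-125b-5p, which share the chromosome 9 cluster, was higher by 1.02 ± 1.35 (exact p = 0.0146, adjusted p = 0.0293). It was higher in EVs in 10 mice, lower in 3 and equal in 1. Its largest difference, 3.60 in replicate 1 at 8 months, rests on 0 plasma counts of miR-100-5p.

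The other ratios did not pass. miR-99a-5p over miR-125b-5p, which share the chromosome 16 cluster, differed by -0.17 ± 1.09 (SD, n = 14 mice, exact p = 0.576, adjusted p = 0.576). miR-10b-5p over miR-10a-5p, which come from different chromosomes, differed by 0.09 ± 0.37 (exact p = 0.405, adjusted p = 0.540). Both called ratios depend on the mice whose pairing is uncertain. Without replicates 2 and 3 at 2 months the adjusted p was 0.115 for each, with differences of 0.88 and 0.82. Leaving out 1 mouse lost the call of miR-99b-5p over miR-125a-5p in 3 of 14 cases, replicates 2 and 3 at 2 months and replicate 2 at 6 months. It lost that of miR-100-5p over miR-125b-5p in 7 of 14, any mouse of 2 months, replicates 2 and 3 at 6 months, replicate 1 at 8 months and replicate 2 at 12 months. The adjusted p then reached at most 0.0586.

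A pair of further ratios was chosen after the values were seen and was not tested. miR-125b-5p over miR-125a-5p had its higher value in EVs in 13 of 14 mice, by 0.78 ± 0.45 (SD), with a geometric mean of 1.48 in EVs and 0.863 in plasma. These miRNAs share their seed but no gene cluster. miR-100-5p over miR-99a-5p, which differ by 1 base, was higher in EVs in 10 of 14 mice, by 1.18 ± 1.66, with a geometric mean of 0.646 in EVs and 0.284 in plasma.

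**Figure D3:**
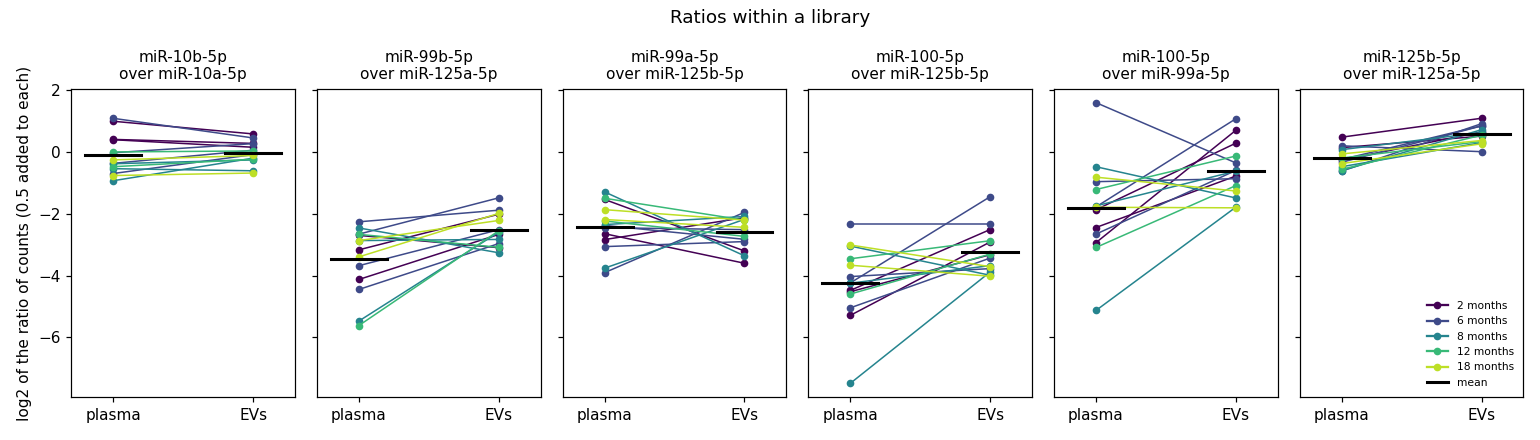
Log2 ratio of the counts of 2 members (y axis, 0.5 added to each count) in plasma and EVs of 14 mice, with lines joining the fractions of a mouse, colours for age and black bars for means. miR-125b-5p over miR-125a-5p is higher in EVs in 13 of 14 mice, and the ratios with miR-99b-5p or miR-100-5p spread most in plasma, where counts are lowest.

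The second comparison asks whether the members change with age. None passed the test in either fraction. The edgeR slopes of the members ran from -0.03 to 0.05 log2 units per month in plasma and from -0.05 to 0.05 in EVs. Of all miRNAs 0 of 304 were called in plasma (0%, 47 at an unadjusted p under 0.05, and 2 in DESeq2) and 1 of 307 in EVs (0.326%, 37 unadjusted, and 2 in DESeq2). No member had an unadjusted p under 0.05. The interaction of age and fraction called 0 of 333 miRNAs with edgeR (0%, 11 unadjusted, and 0 in DESeq2), so no member's age trend was shown to differ between fractions.

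miR-10a-5p had the steepest slope upward in plasma, 0.05 log2 units per month (SE 0.03, adjusted p = 0.407 in edgeR), and a slope of 0.05 in EVs (SE 0.03, adjusted p = 0.480). In RPM it read 7.10, 3.72 and 10.4 in plasma at 2 months and 13.6 and 18.8 at 18 months. In EVs it read 5.68, 3.57 and 16.1 at 2 months and 11.9 and 22.5 at 18 months. In RPM, plasma at 18 months lay above plasma at 2 months without overlap, and EVs overlapped. On the TMM scale the plasma groups overlapped, with 2 months reaching 1882 TMM CPM and 18 months starting at 1844. Replicate 4 at 6 months, at 28.1 RPM in both fractions, lay above every mouse of 18 months.

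Spearman's rho of RPM with age was 0.55 for miR-10a-5p in plasma (n = 14, permutation p = 0.0438, adjusted p = 0.691 over 304 miRNAs), with Pearson's r of 0.43 (permutation p = 0.118, adjusted p = 0.611). Without the 18-month mice, the 2 farthest in age, rho was 0.42 and r was 0.34 over 12 mice. It was the only member past 0.5 in plasma, where 26 of 304 miRNAs were (8.55%). In EVs rho of miR-10a-5p was 0.497, just under that limit (n = 14, permutation p = 0.0726, adjusted p = 0.533), and r was 0.45 (permutation p = 0.104, adjusted p = 0.371). No member passed 0.5 in EVs, where 34 of 307 miRNAs did (11.1%). On TMM CPM rho was 0.53 in plasma and 0.48 in EVs. In RPM, over both fractions, the other members' rho lay between -0.09 and 0.41, and no adjusted p of rho was under 0.5. Pearson's r of miR-99b-5p in EVs was 0.53 (n = 14, permutation p = 0.0528, adjusted p = 0.296) and 0.30 without the 18-month mice. Scaling moved rho of miR-100-5p in EVs from -0.09 in RPM to -0.51 on TMM CPM (n = 14, permutation p = 0.0643, not adjusted), and that of miR-125a-5p in EVs from 0.39 to 0.47.

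miR-100-5p was the member whose slopes differed most in sign between fractions. Its slope was -0.05 log2 units per month in EVs (SE 0.03, adjusted p = 0.480 in edgeR) and 0.05 in plasma (SE 0.05, adjusted p = 0.690). The test of the difference, the interaction, gave -0.11 per month (SE 0.06, unadjusted p = 0.060, adjusted p = 0.997 in edgeR), so the difference did not pass. In RPM, the scale of the age correlations, the EV means were 2.67 ± 2.28 at 2 months (SD, n = 3), 2.22 ± 1.49 at 6 months (n = 4) and 0.638 ± 0.0304 at 8 months (n = 3). They were 4.39 ± 0.696 at 12 months and 1.52 ± 0.320 at 18 months (n = 2 each). The plasma means were 0.450 ± 0.255, 1.19 ± 1.05, 0.369 ± 0.439, 0.694 ± 0.0422 and 1.27 ± 0.158 at the same ages. On the TMM scale, which the slopes use, the EV means were 350 ± 199, 358 ± 103, 152 ± 23.4, 337 ± 78.2 and 159 ± 21.3 TMM CPM at these ages. No steady order by age was seen in EVs on either scale.

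In RPM the EVs of both mice of 12 months were high for most members. miR-125b-5p read 36.4 and 38.9 RPM there, against 8.82 to 10.7 in the 3 mice of 8 months and 18.0 and 29.2 at 18 months. miR-10b-5p read 20.9 and 26.4 RPM at 12 months, against 4.14 to 5.38 at 8 months and 10.9 and 13.9 at 18 months. miR-125a-5p read 25.1 and 31.0, against 6.48 to 7.18 and then 15.1 and 22.8. In RPM the mice of 8 months had the lowest EV means of the 5 ages for all 7 members. These contrasts were smaller on the TMM scale, where EV means of miR-125b-5p were 2382 ± 181 TMM CPM at 8 months (SD, n = 3) and 2864.2 ± 78.4 at 12 months (n = 2). There miR-10a-5p and miR-125a-5p had their lowest EV means at 2 months, 1108 and 1505 TMM CPM against 1454 and 1646 at 8 months. The EV means in RPM at 18 months were below those at 12 months for 6 members, the exception being miR-99b-5p with 3.91 ± 0.424 at 12 months and 4.29 ± 0.783 at 18 months (n = 2 each). A test with age as 5 categories, which does not assume a straight line, called none of the 7 members in either fraction, and called 24 of 304 miRNAs in plasma and 1 of 307 in EVs.

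**Figure D4:**
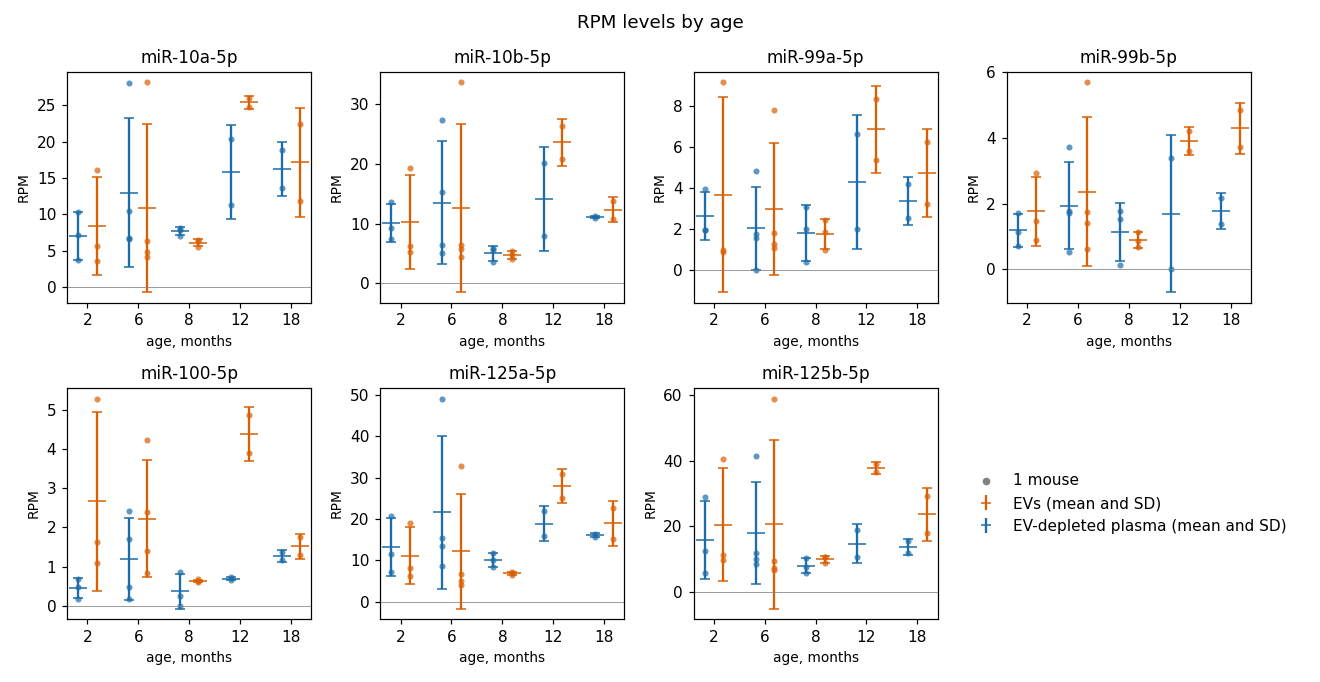
RPM of each member (y axis) by age in months (x axis, ages evenly spaced) in EVs and in EV-depleted plasma, with 1 point per mouse and the mean and SD of each age. The points of 1 mouse at 6 months stand far above the others for most members, such as 58.8 RPM of miR-125b-5p in EVs, and EVs at 8 months have the lowest means.

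The 7 members correlated to different degrees. On log2(TMM CPM + 1) over 28 libraries, Pearson's r among the 4 members of the high set lay between 0.59 and 0.84, with a median of 0.67, the highest between miR-10a-5p and miR-125a-5p. Among the 3 members of the miR-99/100 family, which share a seed, r lay between 0.00 and 0.15. Each of these 3 has a plasma library at 0. Within EVs, where none is at 0, r was 0.49 for miR-99a-5p with miR-99b-5p, 0.31 for miR-99a-5p with miR-100-5p and 0.41 for miR-99b-5p with miR-100-5p, and Spearman's rho over the 28 libraries was 0.53, 0.14 and 0.31. Neighbouring genes did not stand out. The r of miR-99a-5p with miR-125b-5p was 0.49, of miR-100-5p with miR-125b-5p 0.21 and of miR-99b-5p with miR-125a-5p -0.10. The libraries share fraction, age and depth in part, and the low set holds few reads, so these values are descriptions.

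After the mean of each age and fraction was taken out, r within the high set lay between 0.73 and 0.92. Within EVs alone most r of low with high members were above those in plasma, where each low member has a library at 0. The r of miR-99b-5p with miR-125a-5p was 0.54 in EVs and -0.08 in plasma, and that of miR-99a-5p with miR-125b-5p was 0.77 and 0.44. For miR-100-5p with miR-125a-5p it was 0.19 and 0.22, and with miR-10a-5p 0.17 and 0.09. Without replicate 4 at 6 months, which was high in both fractions, the r of miR-125a-5p with miR-125b-5p over 26 libraries was 0.49 against 0.64 with it, and that of miR-10a-5p with miR-125a-5p was 0.80 against 0.84.

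**Figure D5:**
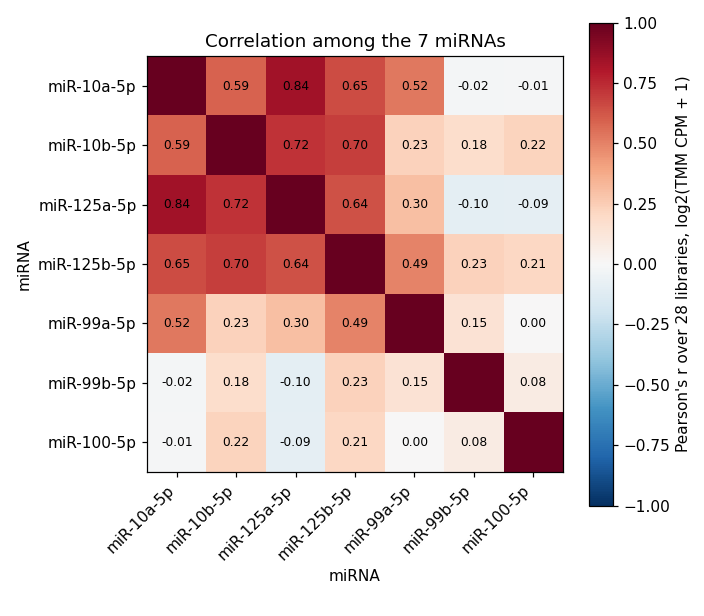
Pearson's r between members over 28 libraries on log2(TMM CPM + 1), with red for positive and blue for negative values. The 4 members listed first, of the miR-10 and miR-125 families, have r of 0.59 to 0.84 among them, and the 3 members of the miR-99/100 family, each with a plasma library at 0, have r of 0.00 to 0.15.

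The miRNAs outside the families with the most similar levels were named by highest r over the 28 libraries. For miR-10a-5p these were miR-143-3p (0.84) and miR-145a-5p (0.82), and for miR-125a-5p the same pair in the other order (0.82 and 0.75). For miR-10b-5p they were miR-126a-5p (0.74) and miR-145a-3p (0.73), and for miR-125b-5p miR-126a-3p (0.81) and miR-23a-3p (0.78). miR-126a is a marker of endothelium, and miR-143 and miR-145a mark smooth muscle. For the low set they were miR-30d-5p (0.93) and miR-532-5p (0.88) with miR-99a-5p, miR-26a-5p (0.90) and miR-674-3p (0.89) with miR-99b-5p, and miR-194-5p (0.70) and miR-501-3p (0.67) with miR-100-5p. Each low member has 1 plasma library at 0, which on the log2 scale can weigh heavily in these r. The median r over the 332 other miRNAs lay between -0.04 and 0.09 for the 7 members.

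The list of endothelium and smooth muscle markers moved with the families across libraries. All 4 of its miRNAs were expressed in both fractions and none was at 0, and their summed level ran from 23668 to 115727 TMM CPM in EVs and from 22839 to 98576 in plasma. The log2 sum of the 7 members followed that of this list with r = 0.89 over 28 libraries, and with 0.82 without replicate 4 at 6 months. The r of single members with it was 0.74 to 0.84 in the high set, 0.46 for miR-99a-5p, 0.25 for miR-100-5p and 0.13 for miR-99b-5p. The r of each low member includes 1 plasma library at 0. Corresponding values for the summed level of the members were 0.55 for muscle, 0.46 for lymphocytes, 0.22 for liver, -0.12 for red cells, -0.48 for platelets and myeloid cells and -0.49 for brain. The part of any cell type in the members' levels was not tested.

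Some markers differed between the fractions as well. Of the red-cell list 2 of 5 tested were lower in EVs, miR-486a-5p with a log2 difference of -0.77 (SE 0.20, adjusted p = 0.0059 in edgeR) and miR-486b-5p with -0.73, near-identical copies whose reads may not be told apart. miR-451a and both arms of miR-144, of the same list, did not pass. Of the platelet and myeloid list 1 of 3, miR-142a-3p, was higher in EVs with 0.77 (SE 0.17, adjusted p = 0.0016 in edgeR). None of 3 liver, 3 muscle, 2 lymphocyte, 4 endothelium and smooth muscle and 1 brain miRNAs tested passed without the block. In the paired fit with the replicate block, miR-192-5p (adjusted p = 0.00409 in edgeR) and miR-194-5p (0.00522) of the liver list, miR-150-5p (0.00072) and miR-342-3p (0.0454) of the lymphocyte list and miR-145a-5p (0.0103) of the endothelium and smooth muscle list passed. Their part in the differences of miR-100-5p and miR-125a-5p was not tested.

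The opposite arms of the members' hairpins were scarce. None of 8 passed the filter in either fraction, so none was tested. The most abundant was miR-99b-3p, with 47 counts summed over EV libraries and 18 over plasma libraries, against 287 and 138 for miR-99b-5p. miR-100-3p had 0 counts in EVs and 1 count in plasma. Of the let-7 miRNAs made from the same clusters 3 of 6 were tested and none passed. These were let-7a-5p at 0.25 (SE 0.14, adjusted p = 0.225 in edgeR), let-7c-5p at -0.14 (SE 0.12, adjusted p = 0.460) and let-7e-5p at 0.25 (SE 0.24, adjusted p = 0.511), all as log2 differences of EVs minus plasma. In the paired fit with mouse as a replicate block, let-7a-5p passed (adjusted p = 0.0412). let-7a-5p and let-7c-5p also come from genes outside these clusters, and let-7e-5p does not. let-7e-5p summed to 272 counts in EVs, close to the 287 of its neighbour miR-99b-5p and below the 1766 of miR-125a-5p on the other side.

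Other miRNAs of the Hox clusters, where the miR-10 genes lie, were rare. Of 4 listed arms 2 were tested. miR-196b-5p was higher in EVs with a log2 difference of 1.39 (SE 0.45, adjusted p = 0.0289 in edgeR), on 64 counts in EVs, and it did not pass with the replicate block (adjusted p = 0.0599). miR-196a-5p stood at -0.61 (SE 0.65, adjusted p = 0.561 in edgeR). miR-615-3p and miR-615-5p did not reach the filter.

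RefSeq holds 3 further mouse miRNAs with the seed of the miR-125 family in this table and none with the seeds of the other families.
mmu-miR-351-5p: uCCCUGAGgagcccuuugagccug
mmu-miR-6367: uCCCUGAGacccugguucagga
mmu-miR-6394: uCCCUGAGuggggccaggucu
Only miR-351-5p passed the filter, with 93 counts over 14 EV libraries, and its log2 difference between EVs and plasma was 0.20 (SE 0.35, adjusted p = 0.752 in edgeR). Its age slopes were -0.15 log2 units per month in plasma (SE 0.07, adjusted p = 0.273 in edgeR) and -0.12 in EVs (SE 0.04, adjusted p = 0.232). Reads with this seed thus came almost wholly from miR-125a-5p and miR-125b-5p, with 1766 and 2654 counts in EVs.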

How the data were processed

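The submitters sequenced small RNA of the EV pellet and of the plasma left above it from 14 mice. Per RNA, the authors deposited estimated counts that were not normalized. A further deposited table holds them as an RPM signal, each count divided by 1 number per library. For these libraries the meaning of that number, the aligner, the counter and the annotation were not given in the sources used here. The study's methods describe Bowtie, miRMaster and miRBase for its organ libraries and refer to an earlier publication for the EV data, so whether the same steps apply is not known. The submitters' processing notes name mm10 and R 4.0.4. The value of 1 read was 0.0722 to 1.70 RPM, which sets the precision of low values. Every column belongs to 1 of the 28 samples, grouped by the submitters' labels of fraction and age. No 2 replicates were duplicates (chi-square per degree of freedom at least 3.83). Age p-values within 1 fraction measure the spread between mice. Fits of both fractions without the replicate block treat the libraries of a mouse as separate, so their p-values ignore the pairing. With the block, and in the ratio tests, p-values measure the spread of differences within mice.

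For tests the estimated counts were rounded. miRNAs that reached 1 RPM in over 10% of a fraction's libraries were fitted in edgeR 4.0.16 by quasi-likelihood, with TMM factors from miRNAs alone (R 4.3.3, limma 3.58.1). DESeq2 1.42.0 was the other tool. Standard errors were taken as the log2 difference over the square root of F. Age correlations used RPM and 100000 permutations. Other steps ran in Python 3.11.15 with scipy 1.17.1, pandas 2.3.3, numpy 2.4.6 and, for figures, matplotlib 3.10.9. Sequences come from RefSeq tables on GRCm38.p6 and gene positions from GENCODE M21, both the build mm10. All 7 members matched. The tests were tested on simulated data.

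The fractions pair by mouse because both come from 1 animal. The deviations of a mouse's libraries from their group means correlated between -0.09 and 0.36 across miRNAs (median 0.13). Between different mice of the same age the values were -0.24 to 0.13 (median -0.05). Only 3 mice had EVs that matched their own plasma best, and the pairing rests on the labels. The members and lists were chosen with earlier results of these data known. The miRNAs named are the 7 members, their opposite arms, let-7 and Hox cluster miRNAs, miRNAs with the same seed, the 2 most correlated non-members each, and marker lists, plus 2 ratios chosen after values were seen. Alternatives were other scalings, filters and codings of age, the replicate block, the added counts in ratios, and fits without single mice, without the uncertain pairs, without the library under 2000000 counts or without the 18-month mice. The combinations of the block with another scaling or tool, its fits without single mice and the fits without the 18-month mice were chosen after seeing the data.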

Additional observations from a re-analysis of the deposited data

Results flagged for a closer look

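In the 4 mice of 6 months, the gap of the highest or lowest mouse to the next, whichever was larger, was divided by the range of the group and set against Dixon's critical value at 95%. In 8 of 32 such groups the gap was past it, and in all 8 the mouse was replicate 4 and the highest. About 1 in 20 groups would be past it by chance, and the groups share their mice. In EVs replicate 4 read 28.1 RPM for miR-10a-5p (others 4.19 to 6.30), 33.7 for miR-10b-5p (4.52 to 6.51), 32.9 for miR-125a-5p (4.05 to 6.73), 58.8 for miR-125b-5p (6.73 to 9.49) and 7.81 for miR-99a-5p (1.09 to 1.82). In its plasma it read 49.1 RPM for miR-125a-5p (8.73 to 15.3) and 41.2 for miR-125b-5p (8.67 to 11.9). On the TMM scale only miR-10b-5p in EVs was past the critical value, at 3496 TMM CPM against 1220 to 1270.2 in the others. The ratios between members were not past it in any case. The cause was not tested.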

How the results depend on the processing

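Of the 7 members 2 were called between EVs and plasma. The count was 1 under DESeq2 size factors, RPM scaling, total miRNA counts as library size, DESeq2, no filter, a filter of 1 RPM in 0.5 of the libraries, the block with RPM scaling, and without the 18-month mice or the uncertain pairs, and 1 to 2 when single mice were left out. miR-100-5p was called in all 28 alternatives, so the call lost was that of miR-125a-5p. In the paired analysis with the replicate block 3 members were called. The number was also 3 with the block and DESeq2 size factors or DESeq2, but there miR-10a-5p was not called and miR-125b-5p was. The log2 difference turned sign for miR-10a-5p with RPM scaling (0.067), for miR-10b-5p with RPM scaling (0.16), no filter (0.038) and the block with RPM scaling (0.033), and for miR-99a-5p with the block (-0.013) and without the library under 2000000 counts (-0.0016). Without single mice miR-99a-5p ran from -0.040 to 0.18, and from -0.12 to 0.12 with the block. None of these was called. The ratio of miR-99b-5p to miR-125a-5p lost its call without the uncertain pairs (0.88) and ran from 0.78 to 1.08 without single mice. That of miR-100-5p to miR-125b-5p lost it without the uncertain pairs (0.82) and with 1 added to counts (0.82), and ran from 0.82 to 1.17. Members past a rho of 0.5 in EVs numbered 0 in RPM, 1 in TMM CPM, 2 in CPM of miRNA counts and 0 to 3 without single mice. In plasma they numbered 1, 0 without the 18-month mice and 0 to 2 without single mice. The causes were not tested. No age slope of a member was called under any alternative. Low counts of miR-99a-5p, miR-99b-5p and miR-100-5p in plasma limit what could be detected.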
